A study of Mus musculus with 52 samples.

Results

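Ank2, BC039966, Dtna, Gramd1b, Irx1 and Spin2c were followed across every clone of the series. They are 6 of the 24421 gene symbols that were counted, and 6 of the 13 that an edgeR test with the library as the sample called higher in mutants in both states, with and without cilia (a call is an adjusted p under 0.05 with a log2 fold change of 1 or more). Since the genes were selected on these mutant-control differences, mutant and control values are a description and not a test. Where a gene is said to be called or no longer called, this tells whether it would still have been selected and is not evidence for the difference. Differences between mutant clones, and between control clones of both states, come from the same libraries and are a description too, calls included. RNA had been sequenced from 13 clone-and-state groups, called clones here, of Cilia-APEX-IMCD3 cells, a mouse inner medullary collecting duct line that carries a peroxidase reporter in its cilia, with 4 technical replicate libraries a clone. Ciliated cells comprised 3 mutant clones (Wdr34 clone 1, Wdr34 clone 3 and Wdr60) and 4 controls (A4, D8, G7 and H12), and non-ciliated cells comprised 2 mutant clones (Wdr34 and Wdr60) and 4 control clones (AB, 1, 2 and 3). The mutants are labelled homozygous for base-edited changes in Wdr34 or Wdr60, which per the study's methods are missense changes modelled on human skeletal ciliopathy alleles, and the labels name the gene but not the allele. Per the study's methods, controls had received the cytosine base editor and a guide vector without a target, and each clone grew from 1 sorted cell. The title of control AB lacks the BE prefix of the other non-ciliated groups. Whether AB had received the editor cannot be told from its label. Some mutant clones carry further unintended heterozygous edits, according to the study's text. All samples are labelled as grown with 10% serum, although the study's methods place ciliated cells in low serum. State, serum, sequencing round and the set of control clones therefore cannot be told apart. The labels do not say whether any clone was sequenced in both states. Per the study's text some mutant alleles were, while 1 Wdr34 allele was obtained too late for the non-ciliated set. The study's methods name 4 control and 3 mutant clones, fewer than the 13 groups. The 13 groups are thus unlikely to be 13 independent clones. A gene separated in both states was probably seen, at least in part, in the same mutant clones again.

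Wdr34 and Wdr60 are the intermediate chains of the dynein-2 motor, which carries cargo from the tip of the primary cilium back to its base. None of the 6 genes is a known part of that motor. Ank2 encodes ankyrin-B, an adaptor that ties membrane proteins to the spectrin skeleton, and Dtna encodes alpha-dystrobrevin of the dystrophin-associated complex, another link between membrane and cytoskeleton. Gramd1b encodes a sterol carrier of the endoplasmic reticulum (Aster-B) that acts at contacts with the plasma membrane. Irx1 encodes an Iroquois homeodomain factor that takes part in patterning of the nephron, Spin2c encodes a member of the spindlin family of histone readers, and BC039966 is a long noncoding RNA.

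Clone by clone, a single one of the 6 genes kept all mutant clones above all control clones in both states (the dot plot of libraries by clone shows every value). Levels are CPM, counts relative to the size of the library, scaled by TMM factors over all 52 libraries, and a gene was counted as separated in a state where its lowest mutant clone lay above its highest control clone. BC039966 was separated in both states. Dtna was separated in ciliated cells, Ank2, Gramd1b and Spin2c were separated in non-ciliated cells, and Irx1 was separated in neither. That made 2 of 6 genes in ciliated cells, where 1.17% of the 11950 genes tested were separated in this direction, and 4 of 6 in non-ciliated cells, where 6.93% of 12012 were. Among the 11709 genes tested in both states, 0.359% were separated in both. Nothing was read from these shares, as the same contrasts chose the genes. Asked of single libraries instead of clone means, separation remained for Gramd1b in non-ciliated cells and for no gene in ciliated cells, against 0.308% and 0.0418% of all genes tested.

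**Figure D1:**
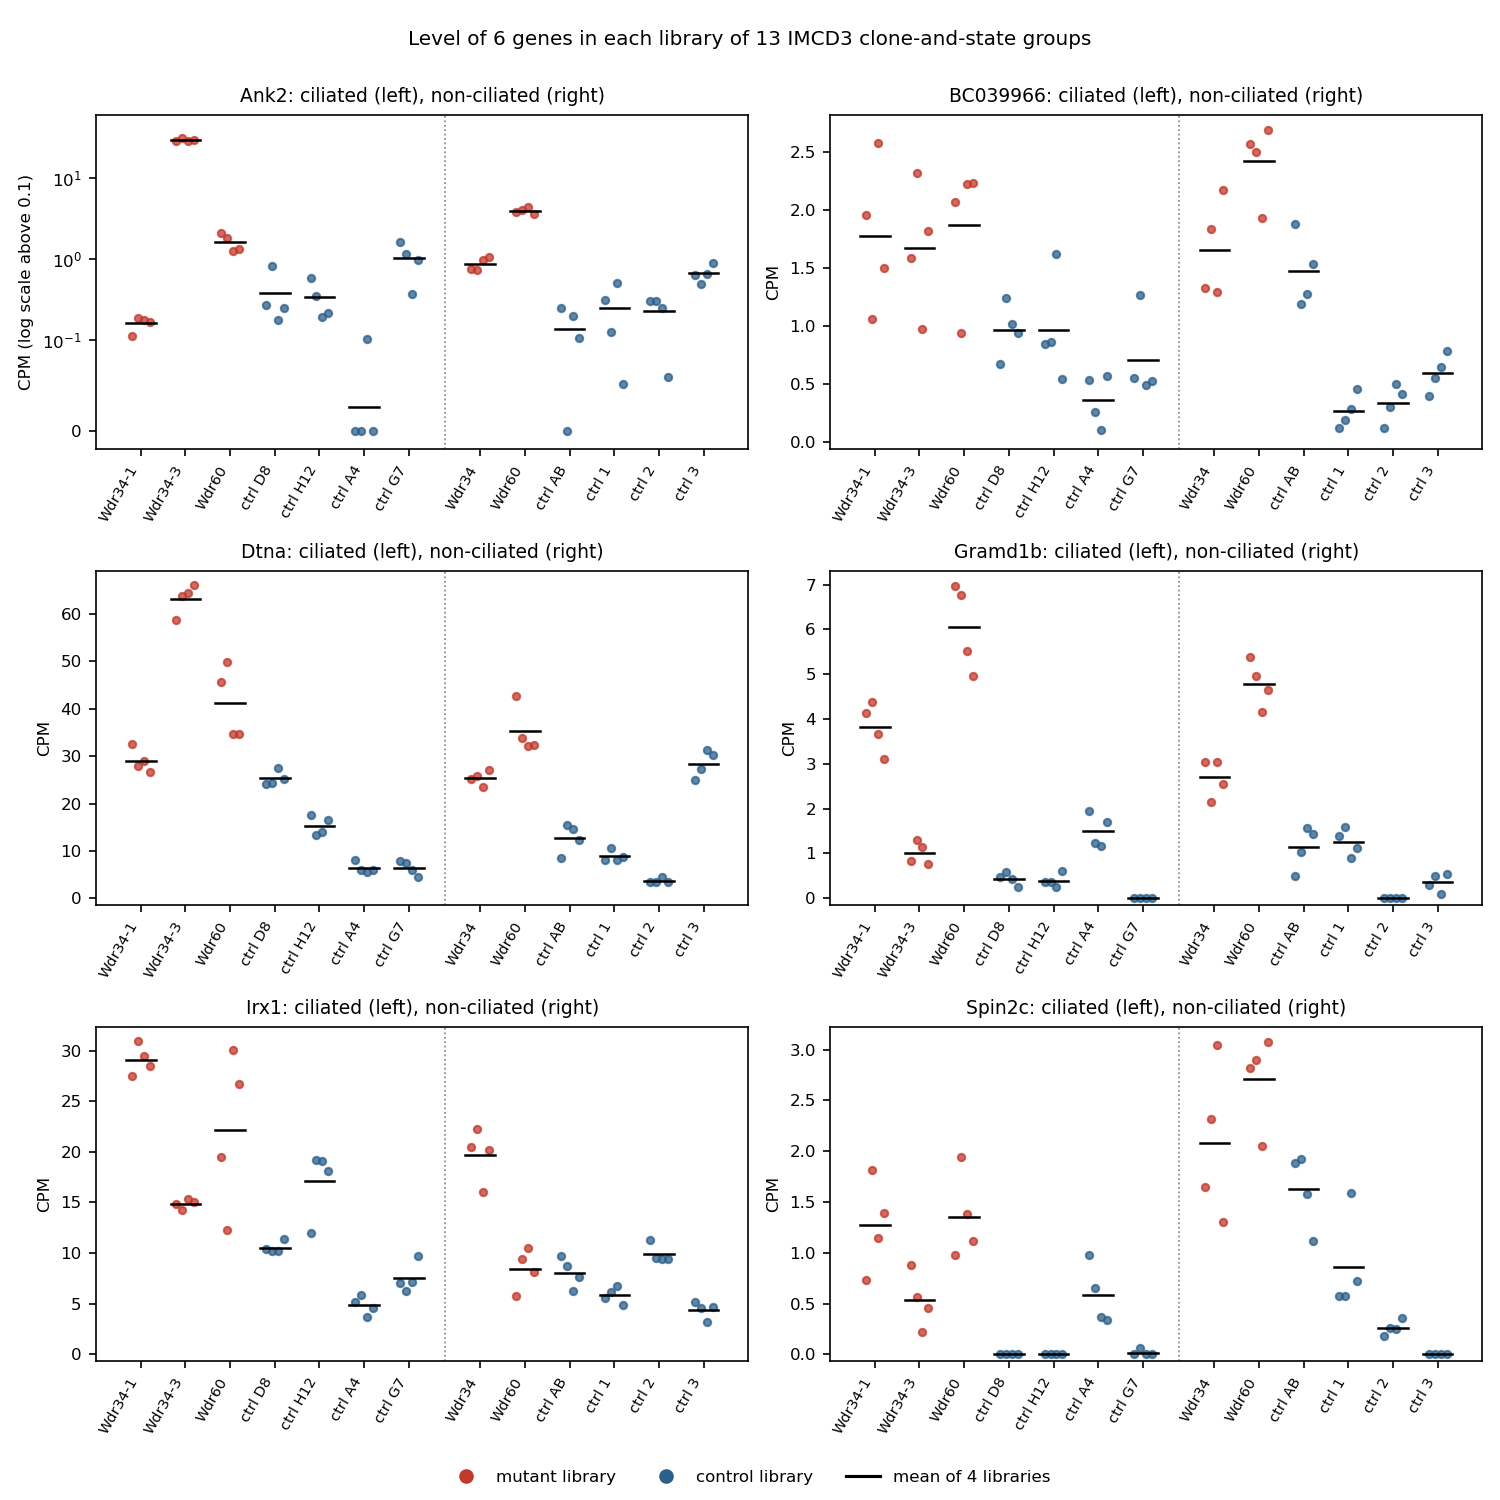
CPM of each of the 6 genes (y axis; logarithmic above 0.1 CPM for Ank2, linear otherwise) in every library of the 13 clone-and-state groups (x axis), with red points for mutant libraries, blue points for control libraries and black bars for the mean of the 4 libraries of a clone. The 4 Ank2 libraries of ciliated Wdr34 clone 3 lie at 28.2 to 30.9 CPM, above every other Ank2 library, whereas the BC039966 points of mutants and controls lie close together.

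Among mutant clones, ciliated Wdr60 exceeded every control clone of its state for all 6 genes. Ciliated Wdr34 clone 1 did so for 5, all but Ank2, and ciliated Wdr34 clone 3 for 3, namely Ank2, BC039966 and Dtna. In non-ciliated cells Wdr34 exceeded every control for 5 genes, all but Dtna, and Wdr60 for 5, all but Irx1. Of all genes tested, 12.8% lay above every control in ciliated Wdr34 clone 1, 16.9% in clone 3, 15.5% in ciliated Wdr60, 18.6% in non-ciliated Wdr34 and 18.9% in non-ciliated Wdr60, and nothing was read from the counts of the 6, which were chosen for being high in these clones. Every one of the 6 genes was called higher in the fits that selected them, where 0.418% of 11950 genes were called higher in ciliated mutants and 0.491% of 12012 in non-ciliated mutants. With the libraries of each clone summed, so that the clone was the sample, 0 of the 6 were called in either state, and 0 of all genes. The log2 fold changes of the 6 stayed alike, at 1.12 (Irx1) to 4.54 (Ank2) in ciliated and 1.03 (Irx1) to 2.89 (Ank2) in non-ciliated cells, with standard errors of 0.424 to 1.65 and 0.439 to 1.37. Irx1 sat just inside the selection, with a log2 fold change of 1.00047 in non-ciliated cells. Just outside it were Spata13, with log2 fold changes of 0.90 in ciliated and 1.16 in non-ciliated cells, and Tgfb3, with 0.89 and 0.85.

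**Figure D2:**
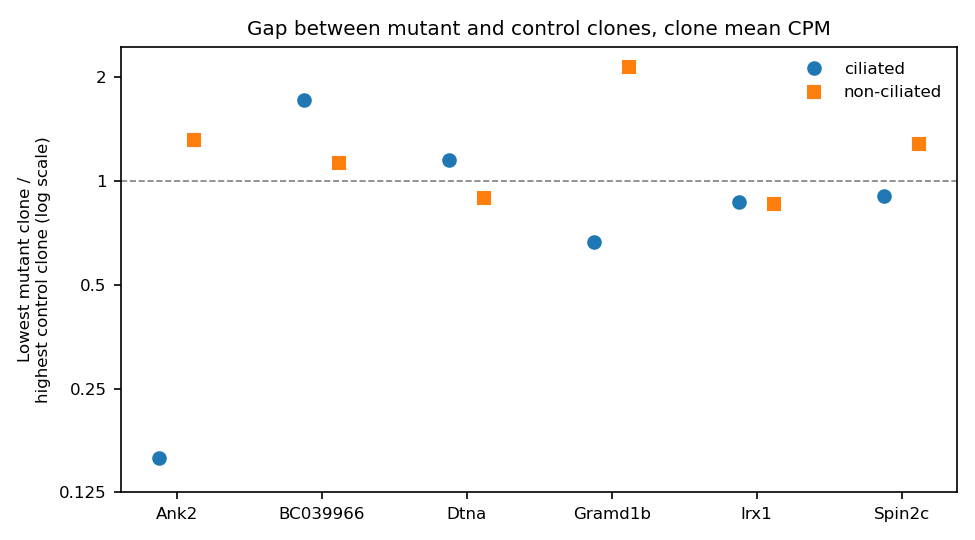
Ratio of the lowest mutant clone to the highest control clone (clone mean CPM, logarithmic y axis) for each gene, with circles for ciliated and squares for non-ciliated cells; the dashed line marks a ratio of 1, above which no mutant clone overlaps a control clone. BC039966 lies above the line in both states, at 1.72 and 1.13, and Irx1 below it in both, at 0.87 and 0.856.

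BC039966, the noncoding RNA, had the most even level among the ciliated mutant clones. It lies on the minus strand at chr4:153948455-153950476 (GRCm38.p6, RefSeq lncRNA, labelled antisense in GENCODE vM21), and its 1371 exonic bases overlapped 0 bases of other GENCODE exons. In ciliated cells it measured 1.87 ± 0.623 CPM (SD, n = 4 libraries, as for all clone values here) in Wdr60, 1.78 ± 0.648 in Wdr34 clone 1 and 1.68 ± 0.561 in Wdr34 clone 3. Its ciliated controls measured 0.972 ± 0.234 in D8, 0.970 ± 0.458 in H12, 0.713 ± 0.373 in G7 and 0.369 ± 0.224 in A4. The 3 mutant clones thus lay above the 4 controls as means, while 7 of 12 mutant libraries lay above the highest control library (1.62 CPM, from H12). Averaged over clones, the mutant level was 2.35 times the control level in ciliated cells. Fitted over libraries this was 1.21 on the log2 scale (SE 0.26), and it was no longer called without control A4 (0.98), without library 1 of each clone (1.13) or without library 4 (1.12). The clone means stayed separated whichever ciliated clone was left out.

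In non-ciliated cells BC039966 measured 2.43 ± 0.337 CPM in Wdr60 and 1.66 ± 0.425 in Wdr34. Controls measured 1.47 ± 0.311 in AB, 0.598 ± 0.161 in control 3, 0.337 ± 0.163 in control 2 and 0.266 ± 0.146 in control 1. Control AB came within a ratio of 1.13 of the Wdr34 clone, and the library ranges of these 2 clones overlapped. Pooled over 4 libraries, Wdr34 had 111 counts (1.68 CPM, 95% exact Poisson interval 1.38 to 2.02) and AB had 108 counts (1.45 CPM, 1.19 to 1.75), so that the gap was within counting error. These intervals cover counting error alone, since reads without molecular identifiers are not independent molecules. The separation of BC039966 in non-ciliated cells therefore rested on a gap that could not be resolved at this depth. Mutants lay 1.59 above controls on the log2 scale (SE 0.366), a difference no longer called without Wdr60 (1.30, SE 0.5), without library 2 of each clone (1.49) or without library 4 (1.60), and 2.31 without control AB.

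The 250 bases before the RefSeq start of BC039966 are shown because it was the gene separated in both states (RefSeq, GRCm38.p6, chr4:153950477-153950726, minus strand, read 5′ to 3′). Capitals mark the match to the CCAAT box, which is read on the opposite strand and begins 67 bases before the start.
BC039966: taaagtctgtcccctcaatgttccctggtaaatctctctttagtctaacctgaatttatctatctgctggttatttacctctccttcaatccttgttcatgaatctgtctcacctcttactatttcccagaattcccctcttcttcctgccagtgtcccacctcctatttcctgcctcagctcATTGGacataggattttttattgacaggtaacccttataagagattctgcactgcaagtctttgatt
The window held 0 CpG dinucleotides, against a median of 6 over 32851 mouse promoter windows of the same length, and 7.87% of those windows held none. Its GC content was 41.2%, against a median of 52.4%. CCAAT occurred on either strand in 33.8% of all windows. The TATA box (TATAAA) occurred in 12.4% of windows, the GC box (GGGCGG) in 32.7%, the E-box (CACGTG) in 6.02% and the Gli motif (GACCACCCA) in 0.225%, each searched on both strands. None of these letters was in this window. Windows of Spin2c and of 4 Ank2 starts also matched by symbol. Each precedes a single annotated RefSeq start and lies inside the span of its gene, that of Spin2c and that of the first Ank2 start reaching into annotated untranslated exons, so that they are not purely upstream sequence. The Spin2c window held GGGCGG and 9 CpG, that of the first Ank2 start the TATA box, a CCAAT box and 19 CpG, and that of the second Ank2 start the Gli motif and a CCAAT box. A match is a description of letters, and no binding was measured.

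Ank2 had the widest range of the 6 genes among ciliated mutant clones, and 1 clone decided its level in ciliated mutants. It spans chr3:126921607-127500347 on the minus strand. Ciliated Wdr34 clone 3 measured 29.2 ± 1.21 CPM, Wdr60 1.62 ± 0.393 and Wdr34 clone 1 0.162 ± 0.0344. Ciliated controls measured 1.03 ± 0.513 in G7, 0.383 ± 0.3 in D8, 0.338 ± 0.177 in H12 and 0.0263 ± 0.0527 in A4. Wdr34 clone 1 was thus below 3 of the 4 controls, and the libraries of Wdr60 overlapped those of G7. The log2 fold change of ciliated mutants over controls was 4.52 (SE 0.825), and without Wdr34 clone 3 it was 0.99 (SE 0.628) and no longer called. Without control G7 the gene did not pass the filter on low counts. Without Wdr34 clone 1 the clone means did not overlap.

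The log2 fold change of Ank2 in ciliated Wdr34 clone 3 over Wdr34 clone 1 was 7.46 (SE 0.195), and that in Wdr60 over Wdr34 clone 1 was 3.29 (SE 0.262). As Ank2 was called in ciliated cells through clone 3, the first of these restates what selected it. All 4 libraries of clone 3 lay above all others. In clone 3 the summed level of 4 fibroblast marker genes was 31.4 CPM, with Dcn (decorin) at 29.1, against 1.34 to 2.46 in the other ciliated clones. Most of the clone 3 sum was thus Dcn, and no rise of the list as a whole is read from it. The 13 collecting duct markers summed to 1330 CPM in clone 3, against 3400 in Wdr34 clone 1 and 3160 in Wdr60. The part of either list in the Ank2 level was not tested. In bulk RNA, more cells of a kind and more RNA per cell cannot be told apart.

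In non-ciliated cells Ank2 measured 3.93 ± 0.321 CPM in Wdr60 and 0.882 ± 0.157 in Wdr34. Controls measured 0.666 ± 0.160 in control 3, 0.252 ± 0.206 in control 1, 0.231 ± 0.117 in control 2 and 0.139 ± 0.110 in AB. Both mutant clones lay above all controls, but the library ranges of Wdr34 and control 3 overlapped. Wdr60 exceeded Wdr34 by a log2 fold change of 2.17 (SE 0.180). Without Wdr60 the log2 fold change of mutants over controls fell from 2.87 (SE 0.449) to 1.43 (SE 0.544) and was no longer called.

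Dtna, the other membrane-cytoskeleton linker, formed a graded series of clones. It spans chr18:23310006-23659719 on the plus strand. Ciliated mutants measured 63.3 ± 3.20 CPM in Wdr34 clone 3, 41.2 ± 7.75 in Wdr60 and 29.0 ± 2.57 in Wdr34 clone 1. Ciliated controls measured 25.3 ± 1.60 in D8, 15.4 ± 2.04 in H12, 6.43 ± 1.55 in G7 and 6.41 ± 1.18 in A4. As clone means the groups did not overlap, though the lowest mutant was 1.15 times the highest control and their libraries overlapped. Mutants exceeded controls by 1.72 on the log2 scale (SE 0.279). The span among controls, from A4 to D8, was 3.95 times. Clone 3 exceeded clone 1 by a log2 fold change of 1.14 (SE 0.118), and Wdr60 lay between them.

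In non-ciliated cells Dtna was higher in control 3 than in the Wdr34 mutant. Wdr60 measured 35.3 ± 5.04 CPM and Wdr34 25.4 ± 1.49. Controls measured 28.4 ± 2.92 in control 3, 12.8 ± 3.14 in AB, 8.88 ± 1.16 in control 1 and 3.73 ± 0.554 in control 2. Thus 1 of the 2 mutant clones lay above all controls, and the control clones spanned 7.61 times. Mutants over controls gave a log2 fold change of 1.17 (SE 0.354), and it was no longer called without Wdr34 (1.39), Wdr60 (0.92), control 1 (1.02) or control 2 (0.85), nor on leaving out any 1 library number (1.03 to 1.25), and it was 1.84 without control 3. Without Wdr34, or without control 3, the remaining clone means did not overlap. The difference between Wdr60 and Wdr34 was 0.48 on the log2 scale (SE 0.103), under the fold needed for a call.

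Gramd1b, the sterol carrier, gave the widest gap of the 6 genes in non-ciliated cells and an overlap in ciliated cells. It spans chr9:40293233-40533614 on the minus strand, and 1.13% of its exonic bases overlap 1700110K17Rik on the opposite strand, which stayed at or below 0.277 CPM. Non-ciliated Wdr60 measured 4.79 ± 0.515 CPM and Wdr34 2.70 ± 0.429. Controls measured 1.25 ± 0.297 in control 1, 1.14 ± 0.481 in AB, 0.357 ± 0.205 in control 3 and 0 counts in all 4 libraries of control 2. The lowest mutant library (2.16 CPM) was above the highest control library (1.58 CPM), which held for none of the other 5 genes in this state. A total of 0 counts in control 2 allows a level of up to 0.0413 CPM (3 counts over the clone). On the log2 scale mutants exceeded controls by 2.44 (SE 0.543), and 1.97 (SE 0.735) and no longer called without Wdr60.

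In ciliated cells Gramd1b measured 6.06 ± 0.970 CPM in Wdr60, 3.83 ± 0.563 in Wdr34 clone 1 and 1.01 ± 0.255 in Wdr34 clone 3. Controls measured 1.51 ± 0.378 in A4, 0.435 ± 0.141 in D8, 0.394 ± 0.150 in H12 and 0 counts in all 4 libraries of G7, which allows up to 0.0388 CPM. Wdr34 clone 3 was therefore below control A4. It was lower than Wdr34 clone 1 by 1.91 on the log2 scale (log2 fold change -1.91, SE 0.207), and Wdr60 was higher than clone 3 by 2.58 (SE 0.2). The 2 Wdr34 clones thus stood on opposite sides of the highest control. The log2 fold change of mutants over controls was 2.61 (SE 0.537), a difference no longer called without Wdr60 (2.02), without library 2 of each clone (2.51) or without library 3 (2.54), and 3.68 without A4, while without clone 3 or without A4 the clone means did not overlap.

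Irx1, the Iroquois factor, overlapped with controls in both states. It lies at chr13:71958232-71963723 on the minus strand. Ciliated mutants measured 29.1 ± 1.48 CPM in Wdr34 clone 1, 22.1 ± 7.91 in Wdr60 and 14.9 ± 0.474 in Wdr34 clone 3. Ciliated controls measured 17.1 ± 3.45 in H12, 10.5 ± 0.572 in D8, 7.53 ± 1.5 in G7 and 4.82 ± 0.910 in A4. H12 lay above Wdr34 clone 3, and the libraries of Wdr60 ranged from 12.3 to 30 CPM. Clone 3 differed from clone 1 by -0.95 on the log2 scale (SE 0.203), short of the fold needed for a call. The log2 fold change of mutants over controls was 1.12 (SE 0.233), and it fell below the fold for a call without clone 1 (0.88) or without A4 (0.89). Its call was also lost without library 1, 3 or 4 of each clone (1.06 to 1.13). Without clone 3, or without H12, the clone means did not overlap.

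In non-ciliated cells a single clone carried the higher Irx1 level. Wdr34 measured 19.7 ± 2.65 CPM and Wdr60 8.47 ± 2.04. Controls measured 9.90 ± 0.917 in control 2, 8.07 ± 1.48 in AB, 5.83 ± 0.777 in control 1 and 4.40 ± 0.850 in control 3. Wdr60 was inside the control range and lower than Wdr34 by 1.21 on the log2 scale (log2 fold change -1.21, SE 0.174). Without Wdr34 the log2 fold change of mutants over controls was 0.27 (SE 0.255), against 1.0 (SE 0.229) with it, and it was 0.92 without control 1, 0.82 without control 3 and 0.96 to 0.98 without library 2, 3 or 4 of each clone. Without Wdr60, or without control 2, the clone means did not overlap.

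Spin2c, the spindlin family gene, was marked by control clones without a single count. It lies at chrX:153832004-153834243 on the plus strand, and none of the 1400 stretches of 100 bases in its transcripts occurred in a transcript of another gene. In ciliated cells it measured 1.36 ± 0.426 CPM in Wdr60, 1.27 ± 0.457 in Wdr34 clone 1 and 0.530 ± 0.276 in Wdr34 clone 3. Control A4 measured 0.583 ± 0.295 CPM, G7 had 1 count in 4 libraries, and D8 and H12 had 0, which allows up to 0.0468 and 0.0389 CPM. All mutants were far above 3 of the controls, and A4 overlapped with Wdr34 clone 3. Clone 3 had 39 counts (0.519 CPM, 95% Poisson interval 0.369 to 0.71) and A4 41 (0.582 CPM, 0.418 to 0.790), a difference within counting error. The log2 fold change of mutants over controls was 2.76 (SE 0.626), and it was no longer called without D8 (2.39), without library 3 of each clone (2.66) or without library 4 (2.58). Without Wdr60, H12, A4, library 1 or library 2 the gene no longer passed the filter on low counts, so that its call was lost in those fits as well. As clone means, without clone 3 or without A4 the groups did not overlap.

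In non-ciliated cells Spin2c measured 2.71 ± 0.451 CPM in Wdr60 and 2.08 ± 0.768 in Wdr34. Controls measured 1.62 ± 0.373 in AB, 0.862 ± 0.489 in control 1, 0.262 ± 0.071 in control 2 and 0 counts in control 3, which allows up to 0.0396 CPM. The clone means did not overlap, and 6 of 8 mutant libraries lay above the highest control library. Mutants exceeded controls here by 1.79 on the log2 scale (SE 0.574), a difference no longer called without Wdr34 (1.97), Wdr60 (1.59) or control 2 (1.52), nor on leaving out any 1 library number (1.74 to 1.88), and 2.67 without control AB. Between the ciliated mutants, clone 3 was lower than clone 1 by 1.25 (log2 fold change -1.25, SE 0.395) and lower than Wdr60, which exceeded it by 1.36 (SE 0.387). The edgeR call of the first difference was lost without library 2, 3 or 4 of each clone (-1.12 to -1.05) and the second without library 3 (1.10).

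Mutant clones of 1 state were also set against each other. These edgeR fits treat technical libraries as samples with 1 clone a side, so that their errors cover the spread between libraries and not that between clones. The same libraries entered the selection, which a single high mutant clone can satisfy, so that nothing was read from the counts of calls. Of the 6 genes, 4 were called between ciliated Wdr34 clone 3 and clone 1 (2 higher and 2 lower), where 12.9% of 12320 genes were called. Between ciliated Wdr60 and Wdr34 clone 1, 1 gene (Ank2) was called, against 5.91% of all genes, and between Wdr60 and clone 3, 3 were called, against 15.1%. Between non-ciliated Wdr60 and Wdr34, 2 genes were called, against 5.62% of 11698. BC039966 was called in none of the 4 comparisons. Its log2 difference between clone 3 and clone 1 was -0.07, with a 95% interval of -0.80 to 0.66, so that a difference of up to 0.80 was within the error. The interval for non-ciliated Wdr60 against Wdr34 was 0.07 to 1.02.

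**Figure D3:**
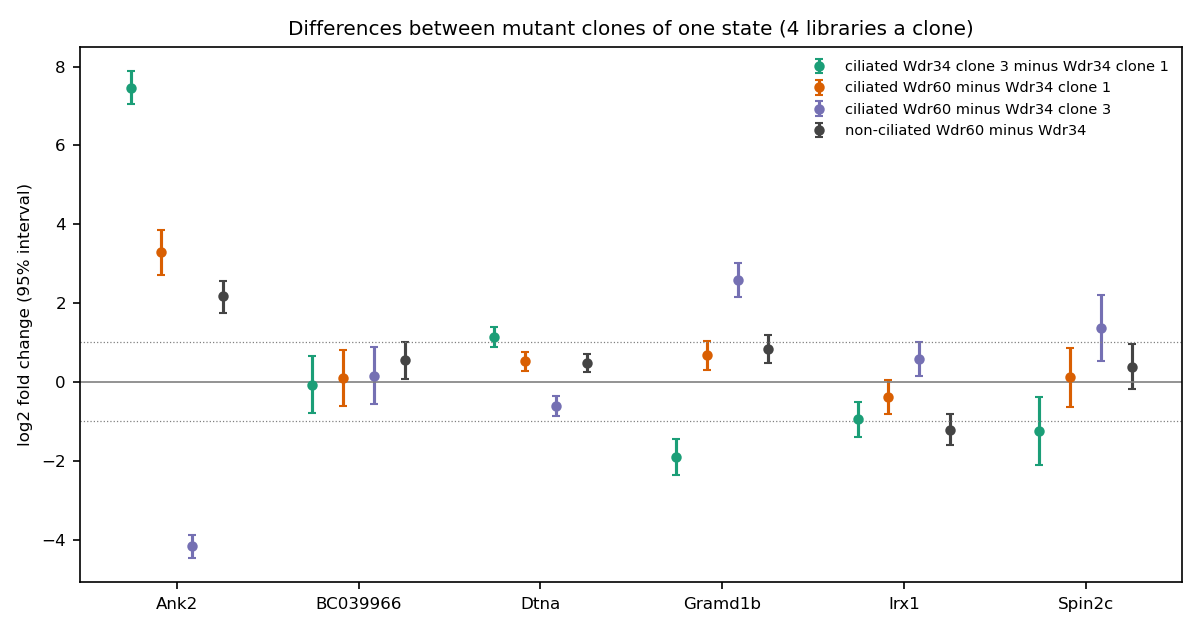
log2 fold change (y axis, points) with 95% interval (bars) between mutant clones of the same state for each of the 6 genes, in 4 comparisons of 4 against 4 libraries; dotted lines mark the fold needed for a call. The Ank2 points range from -4.17 to 7.46, whereas the BC039966 points range from -0.07 to 0.55.

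The control clones give the levels of the 6 genes without a mutation in either state. The selection used these libraries too and favoured genes that are low in the controls of both states, so that nothing was read from the count of calls. Between the 4 ciliated and the 4 non-ciliated control clones, 0 of 6 genes were called by edgeR on clone sums, 0 by DESeq2, and 0 had an unadjusted p under 0.05, while 5.03% of 13119 genes were called. Dtna averaged 13.4 ± 9.0 CPM (SD, n = 4 clones) in ciliated and 13.4 ± 10.6 in non-ciliated controls. Irx1 averaged 10.0 ± 5.27 and 7.05 ± 2.43, BC039966 0.756 ± 0.285 and 0.669 ± 0.556, and Gramd1b 0.585 ± 0.648 and 0.687 ± 0.607. Ank2 averaged 0.444 ± 0.421 and 0.322 ± 0.235. Spin2c averaged 0.150 ± 0.289 and 0.687 ± 0.721, the widest log2 fold change of the 6 at -2.22, with a 95% interval of -6.20 to 1.75. It was -6.81 without ciliated control A4, a fitted value against 3 clones with 1 count between them, and -1.37 without control AB. With 1 control clone left out, the other 5 genes lay between -1.35 and 1.08. The intervals were wide, that of Gramd1b running from -3.52 to 2.99, so that differences of severalfold between the states lay within them. Control G7 and control 2, which had no Gramd1b count, also had the lowest summed collecting duct markers of all clones. The sums were 970 and 835 CPM, against 2690 to 4390 in the other controls, and their part in the Gramd1b level was not tested. Whether G7 and control 2 are the same clone in both states cannot be told from the labels. If so, they would be 1 observation, whereas the fit and intervals above took all control groups as independent.

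Among genes related to the 6 by family or complex, none was called higher in mutants of either state and 2 were called lower. As few genes of any kind were called higher (0.418% and 0.491%, above) or lower (0.226% in ciliated and 2.57% in non-ciliated mutants), nothing particular to these lists can be read from that. The fits took technical libraries as samples. With the libraries of each clone summed, 0 genes were called in either state, and Ank1, Irx3 and Sgcb in non-ciliated cells each had an edgeR adjusted p of 0.976. Of 7 further ankyrins and spectrins tested, 0 were called higher and 0 lower in ciliated mutants (median log2 fold change -0.07). In non-ciliated mutants 1 was called lower, Ank1 (erythroid ankyrin), at -2.13 (SE 0.382, edgeR adjusted p = 0.000744), with 0.0588 to 0.356 CPM in mutants and 0.746 to 1.07 in controls. Of 15 dystrophin complex genes, 6 passed the filter and 0 were called in either state (medians 0.03 and 0.06, with 3 of 6 positive in each). Sgcb (beta-sarcoglycan) was separated in non-ciliated cells, at 18.2 to 18.8 CPM in mutants and 7.13 to 16.8 in controls, and at 0.51 on the log2 scale (SE 0.164, edgeR adjusted p = 0.0352) it was under the fold for a call. Utrn (utrophin) stood at 181 to 237 CPM in mutants and 166 to 307 in controls. Dmd itself stayed at or below 0.0449 CPM in all clones. Of 11 sterol transport and GRAM domain genes, 10 were tested and 0 called (medians -0.01 and -0.12).

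Of the other Iroquois genes, 3 of 5 were tested. In ciliated cells 0 were called, and in non-ciliated cells Irx3 was called lower in mutants at -1.65 (SE 0.566, edgeR adjusted p = 0.0495), with 9.09 to 9.12 CPM in mutants and 2.94 to 70.7 in controls. The mutants were thus inside the control range. Of the spindlins, Spin1 and Spin4 were tested and 0 were called in either state. The median over all genes tested was -0.012 in ciliated and 0.002 in non-ciliated cells.

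Chromosomal neighbours of the 6 genes differed little between mutants and controls in the median. For each gene the 5 nearest tested genes on either side were taken, and the difference of mutant and control clones in mean log2 CPM was compared. The median over these 10 neighbours ran from -0.05 to 0.31 in ciliated and from -0.09 to 0.28 in non-ciliated cells, whereas the genes themselves stood at 1.21 to 2.68 and 0.92 to 2.82. Around Ank2 all 10 neighbours were positive in ciliated cells (median 0.31) and around Dtna likewise (median 0.27), against chromosome medians of 0.13 and 0.11. The genes nearest to Ank2 were Camk2d (0.01 in ciliated and 0.03 in non-ciliated cells) and Larp7 (0.18 and 0.49), and those nearest to Dtna were Nol4 (0.30 and 0.41) and Mapre2 (0.59 and 0.15). The nearest tested genes to BC039966 were Nphp4 (0.15 and 0.04), a ciliary transition zone gene 1390 kb away, and A430005L14Rik (0.11 and 0.34), 6.76 kb away. For Gramd1b they were Zfp202 (0.22 and -0.06), 79.6 kb away, and Hspa8 (-0.19 and 0.04), 268 kb away. For Irx1 they were Adamts16 (0.79 and -1.45), 1120 kb away, and Gm20554 (0.68 and 0.45), 660 kb away. On the side of Spin2c away from Kctd12b it was Sat1 (-0.29 and -0.14), at 1380 kb. None of these 11 was called in either state. Single neighbours differed by up to 1.30 around Ank2 in ciliated cells and by -2.71 around Gramd1b in non-ciliated cells. The highest was Kctd12b, called higher in ciliated mutants, 136 kb from Spin2c, with a difference of 2.30 in ciliated cells and -0.02 in non-ciliated cells. Kctd12b measured 1.35 to 2.36 CPM in the 3 ciliated mutants, 1.57 in control H12 and 0.07 to 0.232 in the other 3 ciliated controls. It was at or below 0.123 CPM in all non-ciliated clones. H12, where Spin2c had no count, was thus the control with the highest Kctd12b level.

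**Figure D4:**
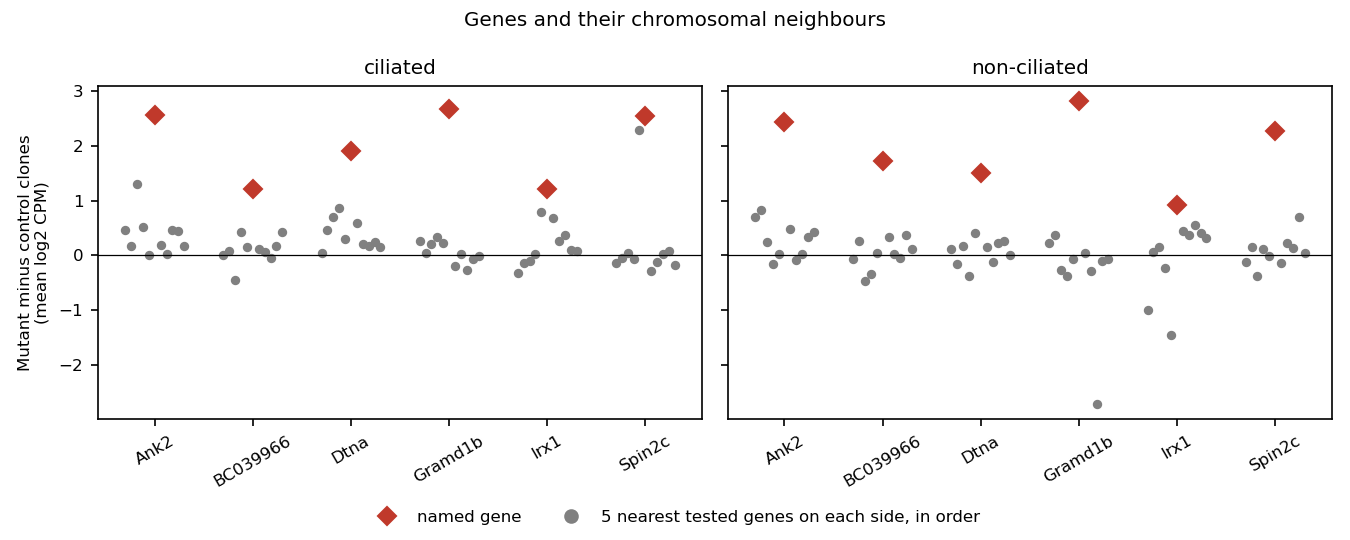
Difference between mutant and control clones in mean log2 CPM (y axis) for each of the 6 genes (red diamonds) and its 5 nearest tested genes on either side (grey points, in chromosomal order), in ciliated and non-ciliated cells. The diamonds lie at 0.92 to 2.82, and of the grey points Kctd12b beside Spin2c reaches 2.30 in ciliated cells.

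Across the 13 clone means, after each state's mean was subtracted, Pearson's r between pairs of the 6 genes ran from 0.18 to 0.84. Positive values are in part fixed by the selection, as every gene was chosen for being higher in the same mutants. The closest pair was Gramd1b and Spin2c (0.84), followed by BC039966 and Dtna (0.78). Ank2 was least like Gramd1b and Spin2c (0.18 for both). Among 12946 other genes, those most like Ank2 were Tlr4 (0.891) and Rgs2 (0.889), and those most like Dtna were Macrod2 (0.943) and Efcab2 (0.925). Gramd1b was most like Cops5 (0.972) and Tsn (0.915), and BC039966 was most like Usp30 (0.915) and Ankle2 (0.907). For Irx1 they were A330069E16Rik (0.893) and Zranb2 (0.880), and for Spin2c Ccdc101 (0.873) and Arhgap32 (0.864). These are the highest of many values, over 13 points that share libraries and depth and of which some may be the same clone in both states, and are given as a description.

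Across the series, library totals were 14816218 to 28084979 counts, so that 1 CPM stood for 14.8 to 28.1 counts and the low genes BC039966, Spin2c and, in most clones, Ank2 and Gramd1b rested on few reads. Wdr34 measured 21.6 to 49.7 CPM and Wdr60 20.3 to 30.6 in mutant clones, against 21.9 to 43.5 and 20.2 to 25.8 in controls, which does not check the labels, as a missense change need not alter the RNA level. Of 13 collecting duct markers, 8 were at 1 CPM or more in every clone, among them Epcam, Krt8 and Pax8, and Aqp2 and Avpr2 were below 1 CPM in all. Their sum was 2550 to 4390 CPM in 10 clones but 1330 in ciliated Wdr34 clone 3, 970 in control G7 and 835 in control 2. The 3 endothelial markers summed to 0.137 CPM at most. Of 8 neuron and muscle markers, where Ank2 and Dtna are best known, 7 stayed below 1 CPM in every clone, Ryr2 at 0. Tubb3 stood at 54.7 CPM in non-ciliated Wdr60 and 91.2 in control 3, the mutant and the control with the highest Ank2 and Dtna levels of that state, and at 11 to 24.5 in the other non-ciliated clones. In ciliated cells it ranged from 1.45 in A4 to 22.5 in H12. There Wdr34 clone 3 was the highest mutant for Tubb3 (20.8 CPM), Ank2 and Dtna. Among ciliated controls H12 was highest for Tubb3, but G7 for Ank2 and D8 for Dtna. The part of Tubb3 in the Ank2 and Dtna levels was not tested. Of 3 leukocyte markers, Ptprc was below 1 CPM in every clone, whereas Csf1r was at 169 to 302 CPM in ciliated and 15.9 to 48.8 in non-ciliated clones.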

How the data were processed

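Groups were taken from the sample labels. The authors aligned the reads to GRCm38/mm10 using Rsubread in R 3.4.4, featureCounts gave 1 number for each gene symbol, and the counts were deposited unnormalised. Strand setting and treatment of multiply mapping reads are not given in the sources used here. The authors tested with DESeq2 1.18.1, per the submitters' notes. Here, counts were fitted in R 4.3.3 with edgeR 4.0.16 (filterByExpr, TMM, glmQLFit and glmQLFTest, 2-sided, Benjamini-Hochberg adjustment over all genes tested). Calls required an adjusted p below 0.05 with a log2 fold change of 1 or more in either direction. Mutant-control fits and fits between mutant clones used the library as the sample, and control clones of both states were compared on summed counts per clone. CPM were TMM-scaled over all 52 libraries. Separation of the 6 genes used clone means of CPM. The shares of all genes and the neighbours used clone means of log2 CPM with a prior count of 2. On that scale the same genes of the 6 were separated. Standard errors are the log2 fold change divided by the square root of F. The fits were also run on simulated counts without differences between clones of a group. That run therefore cannot tell how the fits behave where libraries of 1 clone are taken as samples. Positions and promoters came from RefSeq GRCm38.p6, to which 23201 of 24421 symbols matched, and exons and transcripts from GENCODE vM21. Alternatives were DESeq2 1.42.0, RLE factors, a looser filter, summed clones, a replicate block and left-out clones or libraries. The genes and lists were chosen with earlier results of these data known. Named genes are the 6 genes, called relatives, the 2 genes most like each, and the nearest neighbour on either side; the genes just outside the selection, Dcn, Utrn, Dmd, Sgcb, Spin1, Spin4 and single marker genes were named after their values were seen.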

Additional observations from a re-analysis of the deposited data

Results flagged for a closer look

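Within clones and within the control clones of a state, 90 groups of 4 values were examined for a value far from the other 3, and 12 had one. The nominal rate is about 1 in 20, but groups of few or 0 counts need not follow it, so that no excess is read. For Ank2 these were library 2 of ciliated control D8 (0.83 CPM) and library 3 of ciliated control A4 (0.105 CPM). For BC039966 they were library 2 of ciliated Wdr60 (0.944 CPM, below the others) and library 2 of ciliated control G7 (1.27 CPM). For Dtna they were library 1 of non-ciliated Wdr60 (42.7 CPM) and library 3 of non-ciliated control 2 (4.56 CPM). For Irx1 they were library 4 of ciliated control D8 (11.4 CPM), library 1 of ciliated control H12 (12 CPM, below the others) and library 1 of non-ciliated control 2 (11.3 CPM). For Spin2c they were library 2 of ciliated control G7 (0.0605 CPM, a single count) and library 3 of non-ciliated control 1 (1.59 CPM). Among the 4 ciliated control clones, A4 stood apart for Spin2c at 0.583 CPM, and it was the control that overlapped with a mutant clone.

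The order of Wdr60 and Wdr34 clones turned between states for 3 genes when ciliated Wdr34 clone 3 was the partner, for 2 of them in every library. For Ank2, Wdr60 minus Wdr34 was -4.11 in mean log2 CPM in ciliated cells and 2.03 in non-ciliated cells, and for Dtna it was -0.63 and 0.46, with all libraries of 1 clone on 1 side of the other in each case. For Irx1 it was 0.49 and -1.23, with overlapping libraries in ciliated cells. With ciliated Wdr34 clone 1 as the partner all 6 genes had the sign of the non-ciliated pair, with 2.65 for Ank2, 0.49 for Dtna and -0.47 for Irx1. The labels do not say which ciliated Wdr34 clone, if either, has a counterpart in the non-ciliated set. The difference between states was not tested.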

How the results depend on the processing

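Separation by clone gave the same genes with DESeq2 size factors, with library totals and with a prior count of 0.5. Of single libraries, 0 of 6 genes (5 of all genes) were separated in ciliated and 1 (37 of all) in non-ciliated cells, and 0 in both. Leaving out each clone gave 2 to 5 of the 6 genes (140 to 514 of all) in ciliated, 4 to 5 (832 to 2275) in non-ciliated cells and 1 to 3 in both, with 5 without ciliated Wdr34 clone 3 and 4 without control A4. When the libraries of each clone were summed, 0 genes were called higher and 0 lower in either state, 0 of the 6 among them, with 148 of 13243 ciliated and 582 of 13406 non-ciliated genes at an unadjusted edgeR p under 0.05. The sample was then the clone, with 7 and 6 clones in place of 28 and 24 libraries. With genes of at least 1 count, 230 genes were called higher and 63 lower in ciliated mutants, and 126 higher in non-ciliated mutants. DESeq2 called 63 lower in ciliated mutants and 582 higher between controls. With the library as the sample, 746 were called higher and 473 lower between controls.

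With the replicate block, 17 genes were called lower in ciliated mutants, while Spin2c lost its call in non-ciliated mutants. Between controls, the library as the sample together with the block gave 739 higher and 471 lower. The library as the sample without the block gave 746 and 473. The numbers showed no general pairing of libraries. Same-numbered libraries of different clones had a median correlation of 0.015 (range -0.328 to 0.548), over 0.1 in 20 of 144 pairs. Pairing within single pairs of clones was not tested. Leaving out each clone or library number gave 17 to 146 genes called higher, 5 to 197 lower and 3 to 5 of the 6 genes in ciliated mutants, and 17 to 159, 143 to 368 and 1 to 6 in non-ciliated mutants. It gave 89 to 524 higher and 75 to 417 lower between controls. Irx1 in non-ciliated mutants fell under the fold threshold with DESeq2, with RLE factors and with genes of at least 1 count (0.99 for all), and the last also ended the call of Spin2c there (1.78). No alternative reversed the direction of a called difference of the 6 genes. The cause was not tested where none is given. Levels under about 1 CPM are limited by depth.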

Other observations

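The clones labelled Wdr60 in the 2 states gave these levels, which are not set against each other because state, serum and sequencing round differ with them. Ank2 measured 1.62 CPM in ciliated and 3.93 in non-ciliated Wdr60, Spin2c 1.36 and 2.71, and BC039966 1.87 and 2.43. Dtna measured 41.2 and 35.3 CPM, Gramd1b 6.06 and 4.79, and Irx1 22.1 and 8.47.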
